A study of Mus musculus with 9 samples.

Results

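The genes described here handle fatty acids in fetal liver macrophages. They are 10 genes chosen by name from the 13708 genes of the deposited table, where all 10 had a row, and all 10 passed the filter on low values that left 13594 genes to test. Each row was matched to its symbol by Ensembl identifier. Bulk RNA-seq was performed on macrophages sorted as CD45+ F4/80hi CD11blow from the livers of E15.5 mouse embryos. There were 5 *Mrc1Cre Xpr1fl/fl* samples and 4 *Xpr1fl/fl* samples, the controls, which carry the floxed alleles without Cre. *Xpr1* encodes a phosphate exporter, and its exon 2 lies between *loxP* sites in both genotypes. Cre is inserted with eYFP in exon 30 of *Mrc1*, was used as a heterozygous allele on a C57BL/6 background, and is active wherever *Mrc1* (CD206) is expressed, which in the liver includes sinusoidal endothelial cells as well as macrophages. The question of the comparison was which transcripts differ once *Xpr1* is removed from macrophages that already express CD206. Nothing in the labels says how many embryos made a sample, so the p-values measure the spread between these samples.

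Peroxisome proliferator-activated receptors (PPARs) are nuclear receptors that bind fatty acids and their derivatives, pair with a retinoid X receptor and switch on genes for lipid uptake, storage and oxidation. A macrophage obtains fatty acids from lipoproteins through the secreted enzyme lipoprotein lipase (*Lpl*) and takes them up through the scavenger receptor CD36 (*Cd36*). Fatty acid-binding proteins (*Fabp4*, *Fabp5*) carry them in the cytosol, *Dgat1* makes the triglyceride that perilipin 2 (*Plin2*) coats in lipid droplets, *Pnpla2* releases it again, and *Cpt1a* lets fatty acids enter mitochondria for oxidation. The receptors among the 10 genes are *Pparg* and *Ppard*.

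*Xpr1* was lower in every *Mrc1Cre Xpr1fl/fl* sample (1162 ± 84.9 normalized counts, SD, n = 5) than in any control (1982 ± 205, SD, n = 4), and *Mrc1*, the locus that carries Cre, was 7574 ± 1266 against 24693 ± 2674. The macrophage markers *Adgre1*, *Csf1r*, *Cd68*, *Mertk* and *Fcgr1* were abundant and did not pass the test (adjusted p of 0.816, 0.155, 0.246, 0.0944 and 0.757, limma with Benjamini-Hochberg adjustment). Of the 20 macrophage markers 2 were higher and 9 lower, the latter including the Kupffer cell genes *Timd4*, *Clec4f* and *Vsig4*, and the most abundant, *Ctsb*, was at 197834 ± 11946 against 197381 ± 16141. With scaling of each sample to its 75th percentile 0 were higher and 11 lower. Of the genes tested, 43.1% passed an adjusted p of 0.05, with 21.5% higher and 21.6% lower in *Mrc1Cre Xpr1fl/fl* samples. The libraries carry dates in the column names of the table, and what the dates stand for is not stated. The earliest date holds *Mrc1Cre Xpr1fl/fl* sample 5 and control samples 1 to 3, the middle date holds control sample 4 alone, and the latest holds *Mrc1Cre Xpr1fl/fl* samples 1 to 4 alone. With the date as a term the estimate therefore rests on 1 *Mrc1Cre Xpr1fl/fl* sample against 3 controls, and 8.78% of the genes tested passed. Values from that fit are called values within the date. *Xpr1* (-0.84, adjusted p = 0.00799, limma) and *Mrc1* (-2.05, adjusted p = 0.000412) were lower there too, and of the macrophage markers 0 were higher and 5 lower, *Timd4*, *Clec4f* and *Vsig4* among them.

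Markers of other liver cells differed between the genotypes as well. All 19 erythroid markers tested were lower in *Mrc1Cre Xpr1fl/fl* samples (summed level 108086 to 323104 normalized counts against 425977 to 670537), as were all 15 hepatocyte markers (36282 to 46877 against 61357 to 106763). Of the endothelial markers 13 of 15 were lower (6836 to 8922 against 11215 to 15416), with *Stab2*, the most abundant of them, at 4793 ± 888 against 8125 ± 833, and of the stellate and mesenchymal markers 10 of 12 (755 to 1303 against 2400 to 6400), with *Col3a1* at 233 ± 51.4 against 1183 ± 689. Among neutrophil and progenitor markers 6 of 12 were lower, in sums that overlapped (5183 to 18512 against 9468 to 55855), and among megakaryocyte markers 7 of 12 (862 to 1494 against 2638 to 3250). Monocyte markers were mixed, with 3 higher and 4 lower of 12, and their sum was higher (18253 to 24814 against 14118 to 18248). No marker of these lists was at 0 in any sample except *Gp1bb*, a megakaryocyte gene named after its values were seen. The most abundant genes of the lists not yet named were *Hba-a1* (46276 ± 23242 against 157709 ± 30384), *Trf* (21977 ± 1442 against 35180 ± 5405), *S100a9* (2003 ± 1710 against 7041 ± 5916, not called), *Cx3cr1* (9458 ± 1578 against 6536 ± 563) and *Pf4* (528 ± 98.3 against 1777 ± 217). Within the date, 5 of the erythroid, 2 of the hepatocyte, 2 of the endothelial, 4 of the stellate and mesenchymal, 5 of the neutrophil and progenitor, 1 of the megakaryocyte and 1 of the monocyte markers were lower, and 0 of these lists were higher. In bulk samples fewer cells of a type and less RNA per cell cannot be told apart.

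**Figure D1:**
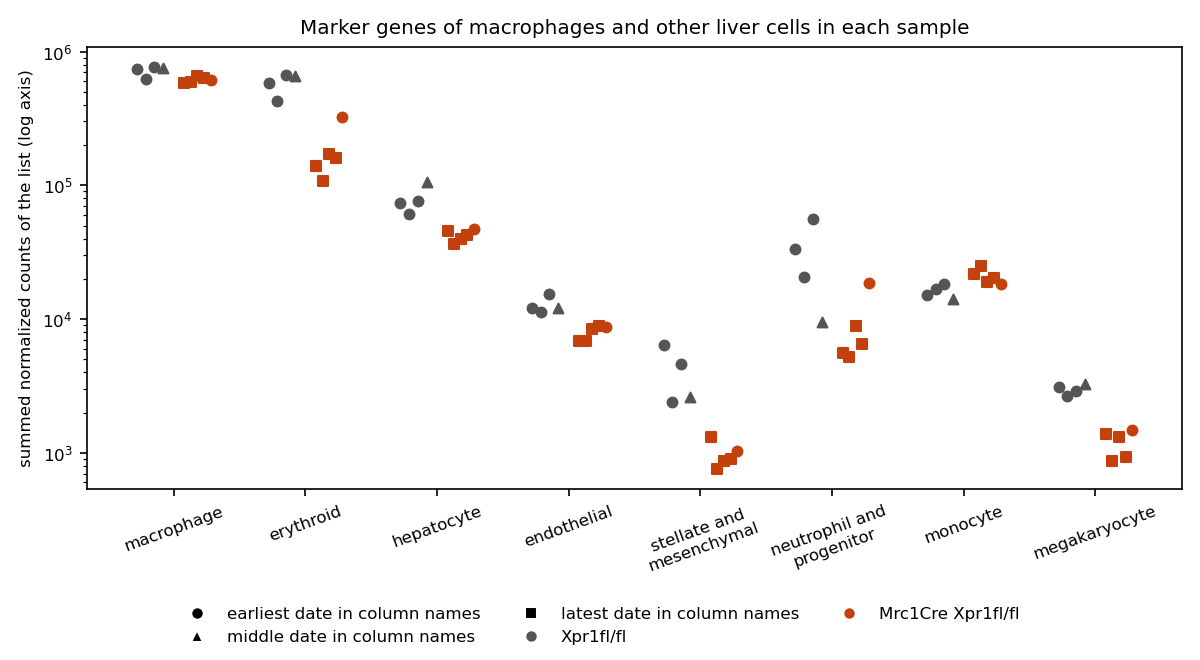
Summed normalized counts of each marker list in each sample on a log axis, with grey points for *Xpr1fl/fl* and orange points for *Mrc1Cre Xpr1fl/fl*, and a symbol for each date in the column names. The erythroid sums reach at most 323104 in *Mrc1Cre Xpr1fl/fl* samples and at least 425977 in controls, whereas the macrophage sums of the genotypes overlap (582992 to 655219 against 619590 to 765243).

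Of the 10 genes, 3 were higher in *Mrc1Cre Xpr1fl/fl* samples (*Lpl*, *Cd36* and *Pparg*), 2 were lower (*Fabp4* and *Fabp5*) and 5 did not pass the test (*Ppard*, *Plin2*, *Dgat1*, *Pnpla2* and *Cpt1a*). At 5 of 10, the share that passed was near the 43.1% of all genes tested, and the median log2 fold change of the 10 genes was 0.072 against 0.005 over all genes tested. In 4 of them (*Lpl*, *Cd36*, *Fabp4*, *Fabp5*) the genotypes did not overlap, beside 34.1% of all genes tested. Within the date, 1 gene was higher (*Lpl*) and 2 were lower (*Fabp4* and *Fabp5*), beside 4.24% and 4.54% of all genes tested. In all 5 genes that passed, *Mrc1Cre Xpr1fl/fl* sample 5 lay outside the range of the 3 controls of its own date, on the side of the change. Those samples were part of the fit that picked the 5 genes, so this is no separate test of them. The same share over all genes that passed was not counted.

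**Figure D2:**
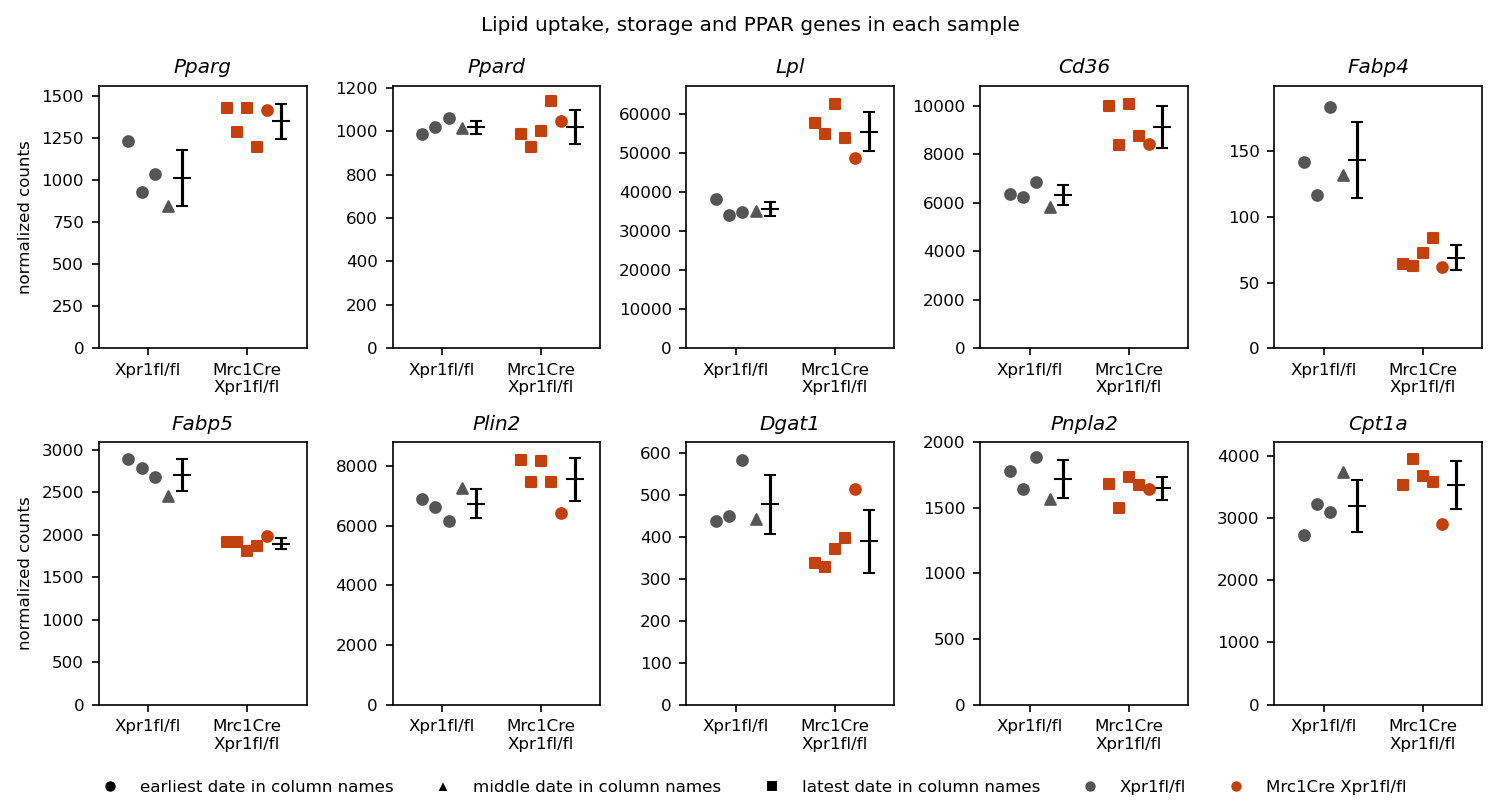
Normalized counts of the 10 genes in each sample on axes that start at 0, with grey points for *Xpr1fl/fl* (n = 4), orange points for *Mrc1Cre Xpr1fl/fl* (n = 5), a symbol for each date in the column names, and bars for the mean and SD. *Lpl* and *Cd36* are higher and *Fabp4* and *Fabp5* lower without overlap, and *Pparg* overlaps through a single control at 1232.8.

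Per transcript length, *Lpl* was the most abundant of the 10 genes and *Fabp4* the least, in both genotypes. In control samples the order by mean normalized counts per kb of the canonical transcript was *Lpl* (8649 ± 430, SD, n = 4), *Plin2* (3287 ± 232), *Fabp5* (2720 ± 188), *Cd36* (1804 ± 120), *Pnpla2* (835 ± 69.4), *Cpt1a* (484 ± 63.7), *Pparg* (370 ± 61.0), *Ppard* (311 ± 9.17), *Dgat1* (253 ± 37.1) and *Fabp4* (106 ± 21.2). The neighbours whose sample ranges overlapped were *Cpt1a* and *Pparg*, *Pparg* and *Ppard*, and *Ppard* and *Dgat1*. By this measure *Lpl* was in place 195 of 13698 genes in controls and *Fabp4* in place 8580. In *Mrc1Cre Xpr1fl/fl* samples *Lpl* stood at 13474 ± 1237 per kb (SD, n = 5), 3.66 times the next gene, and was in place 119. *Cd36* (2602 ± 243 per kb) and *Fabp5* (1907 ± 66.7 per kb) changed places in the order, and their ranges did not overlap in either genotype. *Pparg* stood 1.19 times above *Ppard* in controls, with overlapping ranges, and 1.58 times above it in *Mrc1Cre Xpr1fl/fl* samples, without overlap.

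**Figure D3:**
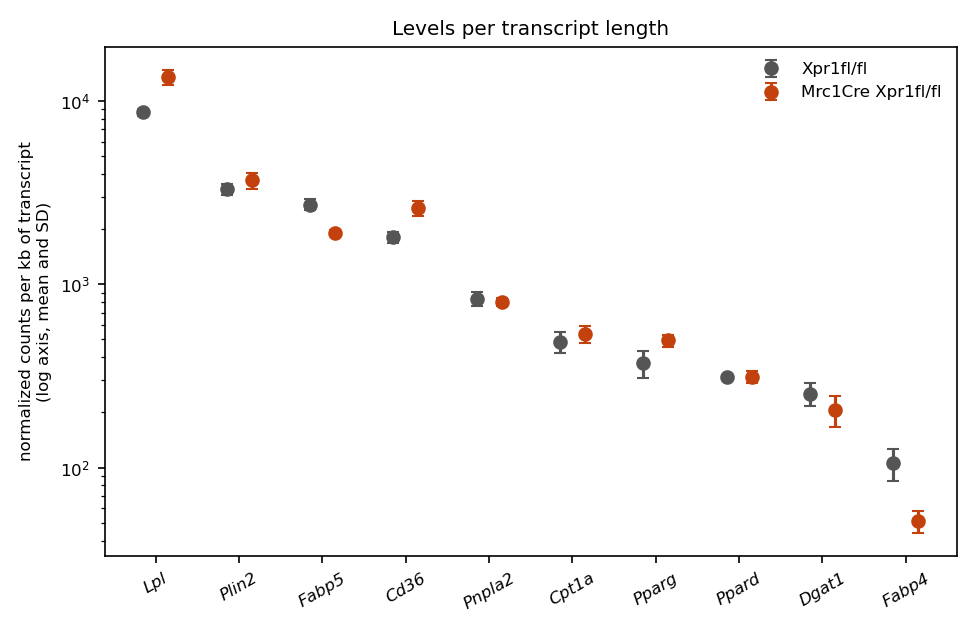
Mean normalized counts per kb of canonical transcript for the 10 genes on a log axis, with the SD, in *Xpr1fl/fl* (grey, n = 4) and *Mrc1Cre Xpr1fl/fl* samples (orange, n = 5), ordered by the control level. *Lpl* is the highest (8649 and 13474) and *Fabp4* the lowest (106 and 50.8), and *Cd36* and *Fabp5* exchange places.

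*Pparg* encodes PPARγ, a receptor that some tissue macrophages use for lipid handling. It lies on chromosome 6 (115337675 to 115468268, plus strand, GRCm39), and its canonical transcript has 8 exons. *Mrc1Cre Xpr1fl/fl* samples 1 to 5 had 1428.4, 1286.8, 1427.6, 1197.4 and 1417.4 normalized counts of *Pparg*. Control samples 1 to 4 had 1232.8, 929.6, 1040.1 and 846.1. The genotypes overlapped only in that control sample 1 exceeded *Mrc1Cre Xpr1fl/fl* sample 4. The mean was 1352 ± 105 (SD, n = 5) against 1012 ± 167 (SD, n = 4), with a log2 fold change of 0.43 (SE 0.10, 1.34-fold, adjusted p = 0.00639, limma with Benjamini-Hochberg adjustment). Within the date the log2 difference was 0.42, about as large, with a wider 95% interval (0.07 to 0.77) and an adjusted p of 0.128 (limma).

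*Ppard*, on chromosome 17 (28451674 to 28520448, plus strand), encodes PPARδ, the more widely expressed receptor. In *Mrc1Cre Xpr1fl/fl* samples 1 to 5 the normalized counts of *Ppard* were 987.6, 928.2, 1003.1, 1140.8 and 1045.8, and in control samples 1 to 4 they were 986.3, 1018.7, 1059.3 and 1015.2. The lowest and the highest values were both from *Mrc1Cre Xpr1fl/fl* samples, with all controls between them. On the log2 scale the difference was -0.0012 with a 95% interval of -0.15 to 0.14 (adjusted p = 0.991, limma), and 0.035 within the date (adjusted p = 0.885). The ratio of *Pparg* to *Ppard* per kb was 1.59 ± 0.19 (SD, n = 5) in *Mrc1Cre Xpr1fl/fl* samples and 1.19 ± 0.22 (SD, n = 4) in controls, with overlapping ranges.

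Promoter windows of *Pparg* and *Cd36*, both higher, are shown because PPARs and many other nuclear receptors bind the hexamer AGGTCA, alone or in pairs. RefSeq promoter windows (GRCm38.p6) were at hand for 6 of the 10 genes (*Pparg*, *Ppard*, *Cd36*, *Plin2*, *Pnpla2* and *Cpt1a*), 8 windows in all, of which the 250 bases before the start site were read. Capitals mark AGGTCA, or TGACCT where the hexamer is on the other strand. The first *Pparg* window is at chr6:115360894-115361143 (plus strand), the next at chr6:115362099-115362348 (plus strand), and the *Cd36* window at chr5:17835897-17836146 (minus strand).
Pparg, first window: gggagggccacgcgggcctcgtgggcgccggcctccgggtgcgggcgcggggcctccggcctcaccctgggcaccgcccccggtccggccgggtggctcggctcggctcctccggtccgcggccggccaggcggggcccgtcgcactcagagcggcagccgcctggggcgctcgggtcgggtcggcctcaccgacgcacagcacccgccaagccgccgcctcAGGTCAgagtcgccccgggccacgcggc
Pparg, next window: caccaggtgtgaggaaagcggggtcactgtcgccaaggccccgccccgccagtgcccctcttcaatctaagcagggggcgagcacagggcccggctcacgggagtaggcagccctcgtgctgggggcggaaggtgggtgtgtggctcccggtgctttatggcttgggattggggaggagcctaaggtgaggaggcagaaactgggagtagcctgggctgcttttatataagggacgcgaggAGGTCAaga
Cd36: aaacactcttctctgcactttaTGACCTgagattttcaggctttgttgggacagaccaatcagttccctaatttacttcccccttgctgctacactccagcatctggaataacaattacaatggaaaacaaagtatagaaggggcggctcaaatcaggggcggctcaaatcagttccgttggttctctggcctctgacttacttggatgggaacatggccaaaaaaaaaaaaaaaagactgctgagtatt
The hexamer begins 28 bases and 9 bases before the start in the *Pparg* windows shown. In that of *Cd36* it begins 228 bases before the start, on the other strand. The last of the 3 *Pparg* windows (chr6:115421816-115422065, plus strand), not shown, holds no hexamer. On either strand the hexamer was present in 5 of the 8 windows (the 3 shown, that of *Plin2* and that of *Cpt1a*) and in 14.0% of all 32851 windows. The pair AGGTCANAGGTCA, the arrangement that PPARs prefer, was in 0 of the 8 windows and in 0.0335% of all, and the looser AGGNCANAGGNCA, which includes it, in 0 of the 8 and in 0.338% of all. A match in these letters is a description of the sequence, since binding was not measured. The genes with the hexamer included 2 that were higher (*Pparg*, *Cd36*) and 2 that did not pass the test (*Plin2*, *Cpt1a*).

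*Lpl*, the enzyme that frees fatty acids from lipoprotein triglyceride, had the largest rise of the 10 genes. It lies on chromosome 8 (69284603 to 69360100, plus strand), and its canonical transcript has 10 exons. *Lpl* stood at 57533.3, 54842.5, 62477.0, 53774.0 and 48608.3 normalized counts in *Mrc1Cre Xpr1fl/fl* samples 1 to 5. The control samples 1 to 4 had 38173.8, 34175.2, 34885.2 and 35129.7. Every *Mrc1Cre Xpr1fl/fl* sample exceeded every control. From 35591 ± 1769 (SD, n = 4) in controls to 55447 ± 5092 (SD, n = 5), the log2 fold change was 0.64 (SE 0.07, 1.55-fold, adjusted p = 8.03e-05, limma), larger than that of all but 5.75% of the genes tested. The lowest of the *Mrc1Cre Xpr1fl/fl* values belonged to sample 5, the sample that shares a date with controls, and within the date the difference was 0.45 (95% interval 0.20 to 0.69, adjusted p = 0.0345, limma).

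*Cd36*, on chromosome 5 (17986432 to 18094067, minus strand), encodes a receptor for long-chain fatty acids and oxidized lipoproteins and is a textbook target of PPARγ. *Mrc1Cre Xpr1fl/fl* samples 1 to 5 had 9998.1, 8363.5, 10082.4, 8748.4 and 8409.4 normalized counts of *Cd36*, and control samples 1 to 4 had 6358.5, 6252.2, 6851.7 and 5827.4. The genotypes did not overlap. *Cd36* rose by a log2 fold change of 0.53 (SE 0.07, 1.44-fold, adjusted p = 0.000229, limma), and within the date it was 0.38 with an adjusted p of 0.073 (95% interval 0.12 to 0.63, limma). *Cd36* and *Lpl* are also made by endothelial cells, of whose markers 13 of 15 were lower, and 9 with quantile normalization. The median log2 fold change of the endothelial markers was -1.18 over all samples and -0.99 within the date. The part of endothelial cells in the differences in *Cd36* and *Lpl* was not tested.

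The cytosolic carriers were both lower. *Fabp4* and *Fabp5* lie 187110 bases apart on chromosome 3, with no other gene of the table between them. *Fabp4* (10268785 to 10273737, minus strand, 4 exons) is a carrier of adipocytes, endothelium and some macrophages and, like *Cd36*, a textbook target of PPARγ. In *Mrc1Cre Xpr1fl/fl* samples 1 to 5 the normalized counts of *Fabp4* were 64.3, 62.4, 72.6, 83.9 and 62.2, and in control samples 1 to 4 they were 141.9, 116.5, 184.0 and 132.1. Every control exceeded every *Mrc1Cre Xpr1fl/fl* sample. With a mean of 69.1 ± 9.28 (SD, n = 5) against 144 ± 28.9 (SD, n = 4), it fell by 1.03 on the log2 scale (SE 0.17, 0.488-fold, adjusted p = 0.000564, limma), and by 1.21 within the date (95% interval -1.88 to -0.53, adjusted p = 0.038, limma). The endothelial markers, which moved the same way, had a median log2 fold change of -1.18, and of -0.99 within the date. Their part in the difference in *Fabp4* was not tested.

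*Fabp5* (10077602 to 10081674, plus strand, 4 exons) is the epidermal-type carrier that most macrophages express. *Fabp5* stood at 1909.6, 1917.5, 1802.2, 1861.7 and 1979.4 normalized counts in *Mrc1Cre Xpr1fl/fl* samples 1 to 5. The control samples 1 to 4 had 2885.1, 2786.4, 2679.6 and 2450.8. The *Mrc1Cre Xpr1fl/fl* values were all under the lowest control, and their SD of 3.50% of the mean was the smallest of the 10 genes in that genotype. *Fabp5* had a log2 fold change of -0.51 (SE 0.06, 0.702-fold, adjusted p = 6.31e-05, limma), and within the date it was -0.49 (95% interval -0.68 to -0.31, adjusted p = 0.00874, limma). Of the 31-base words of its canonical transcript, 32.9% also occurred in transcripts of 5 processed pseudogenes, none of which is in the table, so reads could have been split between copies. Per kb, *Fabp5* stood 30.4 to 43.6 times above *Fabp4* in *Mrc1Cre Xpr1fl/fl* samples and 19.9 to 32.7 times above it in controls. Of the other 6 genes of the table within 500000 bases of the pair, 1 was higher (*Snx16*, log2 fold change 0.35, adjusted p = 0.0298, limma) and 1 lower (*Zfand1*, -0.55, adjusted p = 0.000956), both named after their values were seen.

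**Figure D4:**
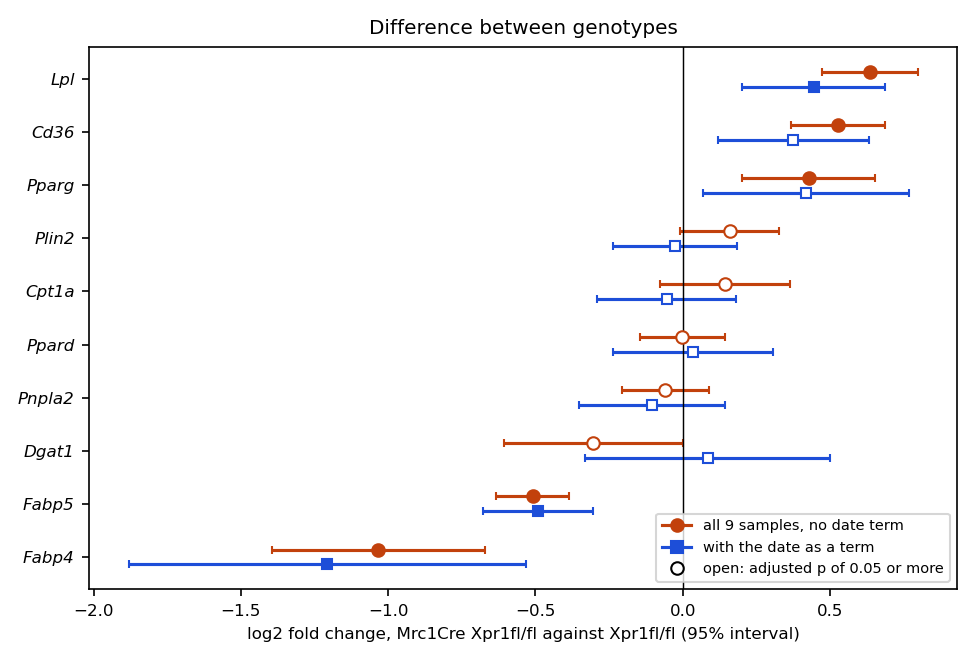
Log2 fold change of each of the 10 genes with its 95% interval, for all 9 samples (orange circles) and with the date as a term (blue squares), where open symbols mark an adjusted p of 0.05 or more. *Lpl*, *Fabp5* and *Fabp4* are filled in both, *Cd36* and *Pparg* in the former only, and *Plin2*, *Cpt1a*, *Ppard* and *Dgat1* change side between the fits.

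The genes of storage did not pass the test. *Plin2* (chromosome 4, 86565912 to 86588459, minus strand) encodes the main droplet coat protein of macrophages. *Mrc1Cre Xpr1fl/fl* samples 1 to 5 had 8207.5, 7463.5, 8173.0, 7443.7 and 6430.3 normalized counts of *Plin2*, and control samples 1 to 4 had 6902.1, 6637.3, 6141.9 and 7272.9. Samples 1 to 4 of the former exceeded every control, and sample 5 was lower than 3 of the 4 controls. The log2 difference was 0.16 with a 95% interval of -0.0079 to 0.33 (adjusted p = 0.113, limma). Without sample 5 it was 0.22 (adjusted p = 0.016, limma), but then no date holds both genotypes, so genotype and date cannot be told apart. Within the date, where sample 5 stands for its genotype, it was -0.027. The transcript shares 14.8% of its 31-base words with *Gm12551*, which is not in the table.

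*Dgat1* (chromosome 15, 76385083 to 76396476, minus strand) encodes an enzyme of the last step of triglyceride synthesis, and overlaps *Hsf1* on the opposite strand, whose reads can be told apart only where counting used strand. In *Mrc1Cre Xpr1fl/fl* samples 1 to 5 the normalized counts of *Dgat1* were 336.7, 328.0, 370.9, 396.3 and 515.2, and in control samples 1 to 4 they were 436.9, 450.0, 582.7 and 441.8. Here too sample 5 differed from the other *Mrc1Cre Xpr1fl/fl* samples, being higher than 3 of the 4 controls. This gave a log2 fold change of -0.30 with a 95% interval of -0.61 to 0.0015 (adjusted p = 0.0991, limma). Without sample 5, where again no date holds both genotypes, it was -0.41 (adjusted p = 0.0128, limma). Within the date it was 0.085.

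The genes of release and oxidation did not pass either. *Pnpla2* (chromosome 7, 141034404 to 141040656, plus strand) encodes adipose triglyceride lipase, which opens the breakdown of stored triglyceride. *Pnpla2* stood at 1685.0, 1499.8, 1737.5, 1678.9 and 1646.1 normalized counts in *Mrc1Cre Xpr1fl/fl* samples 1 to 5. The control samples 1 to 4 had 1783.9, 1643.9, 1886.9 and 1566.1. The values of the genotypes were interleaved. Their log2 difference was -0.059 with a 95% interval of -0.21 to 0.09 (adjusted p = 0.509, limma), and -0.10 within the date (adjusted p = 0.599).

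*Cpt1a* (chromosome 19, 3371853 to 3437996, plus strand) encodes the carnitine palmitoyltransferase of the outer mitochondrial membrane, the gate of fatty acid oxidation. *Mrc1Cre Xpr1fl/fl* samples 1 to 5 had 3523.0, 3950.9, 3678.2, 3581.2 and 2891.9 normalized counts of *Cpt1a*, and control samples 1 to 4 had 2721.8, 3217.8, 3093.6 and 3737.4. Sample 5 was again the lowest of its genotype and lay within the range of the controls of its date. Over all samples the log2 fold change was 0.14 with a 95% interval of -0.076 to 0.36 (adjusted p = 0.268, limma), and -0.055 within the date (adjusted p = 0.786, limma). Sample 5 was the lowest of the *Mrc1Cre Xpr1fl/fl* samples in 4 of the 10 genes (*Fabp4*, *Plin2*, *Lpl*, *Cpt1a*) and the highest in 2 (*Fabp5*, *Dgat1*). Over all genes tested it was the lowest or the highest in 52.2%.

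The other genes of these pathways were read from lists that exclude the 10 genes. Of 131 such genes tested, 23 were higher and 43 lower in *Mrc1Cre Xpr1fl/fl* samples, beside 21.5% and 21.6% of all genes tested. The 66 genes that passed compare with 43.1% of all genes tested. Within the date 3 were higher and 5 lower, beside 4.24% and 4.54% of all genes tested, and the pathway genes named below passed there only where so stated. At an unadjusted p under 0.05 within the date were 8 of 23 genes of uptake, 5 of 23 of triglyceride synthesis, 5 of 16 of lipolysis, 10 of 29 of mitochondrial oxidation, 4 of 20 of peroxisomal oxidation and 3 of 20 PPAR partners, beside 25.9% of all genes tested. Scaling to the 75th percentile changed the split over all genes tested from 2926 higher and 2939 lower to 1999 and 3707, and counts of the pathway lists under that scaling are given where they differ.

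The partners and cofactors of the PPARs were the list with mostly higher genes, 10 higher and 1 lower of 20, beside 21.5% and 21.6% of all genes tested. Their median log2 fold change was 0.27 against 0.005 over all genes tested, and 0.11 against 0.012 within the date. *Ep300*, a histone acetyltransferase, stood at 5884 ± 683 against 4002 ± 469 (log2 fold change 0.56, adjusted p = 0.00135, limma) and *Ncoa1*, a steroid receptor coactivator, at 577 ± 45.5 against 413 ± 14.7 (0.48, adjusted p = 0.000546). The list holds corepressors as well as coactivators, and the corepressor *Ncor1* was higher too (0.47, adjusted p = 0.00227, limma). The gene that was lower was *Ncoa4* (-0.22, adjusted p = 0.021, limma), which is better known for delivering ferritin to lysosomes. *Rxra*, the most usual heterodimer partner, was at 17246 ± 276 against 16428 ± 387 and did not pass (0.07, adjusted p = 0.198, limma). *Ncor1*, *Ncoa4* and *Rxra* were named after their values were seen. With scaling to the 75th percentile 7 of the list were higher, and within the date 1 was.

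Uptake and activation of fatty acids gave a mixed list, with 5 genes higher and 6 lower of 23 and a median of -0.02. Of all genes tested, 21.5% were higher and 21.6% lower. The higher genes included *Acbd3*, a Golgi protein with an acyl-CoA-binding domain (0.33, adjusted p = 0.000168, limma), *Acsl5*, an acyl-CoA synthetase (0.19, adjusted p = 0.0176), and, by less clear separation or at lower levels, *Fabp3* (1.19) and *Acsl4* (0.18), the last 2 named after their values were seen. Among the falls were those of the brain-type carrier *Fabp7* (69.0 ± 12.0 against 189 ± 16.6, -1.45, adjusted p = 4.9e-05, limma) and the liver-type carrier *Fabp1* (43.3 ± 10.3 against 117 ± 24.9, -1.42, adjusted p = 0.000344). All 15 hepatocyte markers were lower as well, with a median of -1.11, and their part in the value of *Fabp1* was not tested. The fatty acid transporter *Slc27a1*, also named after its values were seen, was 494 ± 53.0 against 945 ± 30.4 (-0.94, adjusted p = 1.72e-05, limma). *Fabp7* and *Slc27a1* were the 2 genes lower within the date (-1.73 and -1.01, adjusted p of 0.00565 and 0.00495, limma), and *Acbd3* the gene that was higher (0.33, adjusted p = 0.0267). With scaling to the 75th percentile 2 genes of the list were higher.

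Triglyceride synthesis and droplet genes gave 3 higher and 7 lower of 23, beside 21.5% and 21.6% of all genes tested, with a median of -0.04. *Gpat4*, which opens glycerolipid synthesis, was higher (2299 ± 117 against 1808 ± 121, 0.35, adjusted p = 0.000972, limma), also within the date (0.37, adjusted p = 0.0486). *Hilpda*, a droplet protein that inhibits *Pnpla2*, was higher over all samples (548 ± 52.4 against 434 ± 51.6, 0.34, adjusted p = 0.019, limma) but did not pass within the date (0.30, adjusted p = 0.332). The third was *Soat1*, which esterifies cholesterol, named after its values were seen (0.29, adjusted p = 0.0133, limma). Among genes of at least 50 normalized counts whose genotypes did not overlap, those that fell were the acyltransferase *Agpat4* (83.3 ± 20.3 against 198 ± 45.4, -1.24), the phosphatase *Lpin1* (399 ± 44.4 against 610 ± 102, -0.60) and *Bscl2*, which encodes seipin (1293 ± 78.1 against 1659 ± 110, -0.36), with adjusted p of 0.00073, 0.00192 and 0.00122 (limma). Falls outside those limits included *Cideb* (-1.53) and *Mogat2* (-1.23), which were under 50 normalized counts, and *Dgat2* (-0.54), which overlapped, all 3 named after their values were seen. With scaling to the 75th percentile 2 genes of the list were higher and 7 lower.

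Lipolysis genes gave 1 higher and 6 lower of 16, beside 21.5% and 21.6% of all genes tested, with a median of -0.26 (-0.15 within the date). The gene that was higher was *Lipa*, the acid lipase of lysosomes (22529 ± 2238 against 18032 ± 1310, 0.32, adjusted p = 0.00702, limma). *Mgll*, which completes the breakdown of triglyceride, had the largest fall of the 6 lists among genes of at least 50 normalized counts, at 134 ± 44.8 against 483 ± 81.9 (-1.89, adjusted p = 6.08e-05, limma). The diacylglycerol lipase *Dagla* (139 ± 29.6 against 291 ± 39.9, -1.07, adjusted p = 0.00032) and the phospholipase *Ddhd1* (1819 ± 320 against 2836 ± 231, -0.65, adjusted p = 0.00106) were lower as well. *Dagla* and *Mgll* are better known for making and degrading an endocannabinoid. *Mgll* and *Dagla* were also lower within the date (-1.16 and -1.27, adjusted p of 0.0254 and 0.0137, limma). With scaling to the 75th percentile 7 genes of the list were lower.

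The lists of oxidation genes held more lower than higher genes in both organelles. In mitochondria 14 of 29 passed as lower and 3 as higher (median -0.17, and -0.21 within the date), beside 21.6% and 21.5% of all genes tested. Among genes of at least 50 normalized counts, falls without overlap between genotypes included those of the dehydrogenase *Acad10* (109 ± 14.8 against 150 ± 16.2, -0.46, adjusted p = 0.0208, limma) and *Echs1*, the short-chain hydratase (1688 ± 99.0 against 2298 ± 150, -0.44, adjusted p = 0.000241). The 3 that were higher were *Acadl* (0.18, adjusted p = 0.0142, limma), *Crat* (0.21) and *Acacb* (43.5 ± 27.0 against 11.6 ± 3.73), an enzyme whose product inhibits *Cpt1a*. Within the date 1 gene of this list passed, *Acadvl*, the very-long-chain dehydrogenase (-0.39, adjusted p = 0.0422, limma). *Crat*, *Acacb* and *Acadvl* were named after their values were seen. With scaling to the 75th percentile 16 were lower and 1 higher.

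In peroxisomes 9 of 20 passed as lower and 1 as higher (median -0.23), so that the share that passed either way, 10 of 20, was near the 43.1% of all genes tested. The enoyl-CoA reductase *Pecr* (114 ± 17.9 against 180 ± 6.54, -0.67), *Scp2*, a thiolase and sterol carrier (5433 ± 460 against 7539 ± 661, -0.47), and *Abcd4*, better known for cobalamin transport in lysosomes (573 ± 37.8 against 772 ± 93.2, -0.42) were lower, with adjusted p of 0.00259, 0.000582 and 0.00331 (limma). *Abcd3*, a fatty acid transporter of the peroxisomal membrane, was higher (1846 ± 143 against 1446 ± 84.9, 0.35, adjusted p = 0.00191, limma). Within the date 0 of the 20 passed in limma, 4 had an unadjusted p under 0.05 (all lower), and the median was -0.23 there too. With scaling to the 75th percentile 11 of them were lower.

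**Figure D5:**
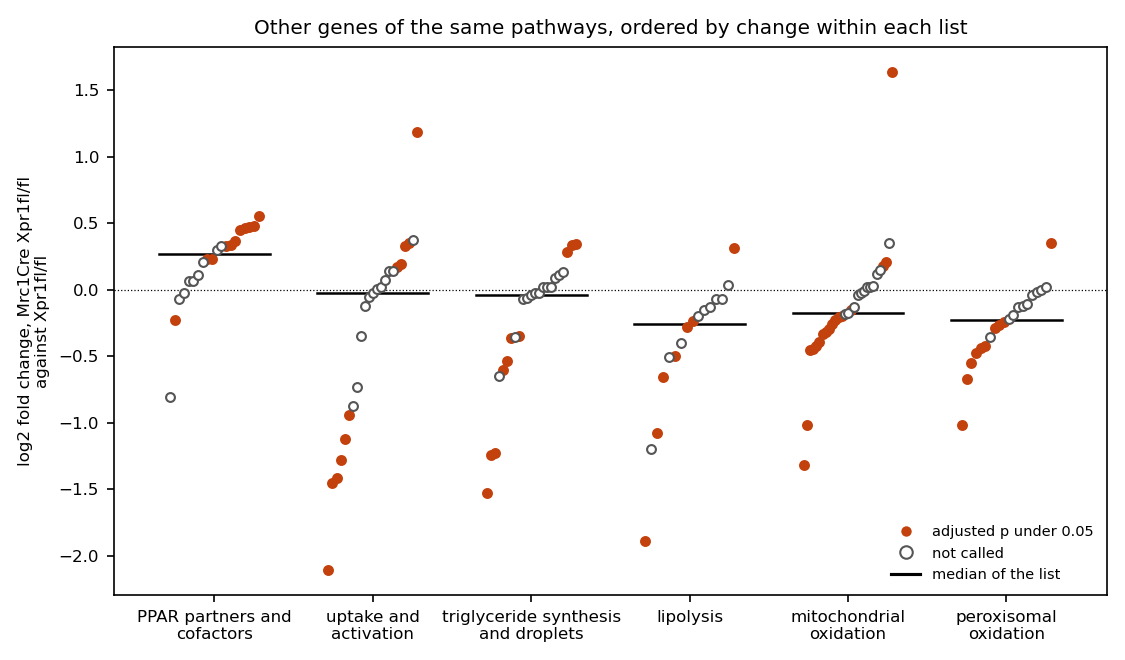
Log2 fold change of each gene tested in 6 pathway lists, ordered by change within a list, with filled points for an adjusted p under 0.05, open points for genes that did not pass, and a line for the median of the list. The PPAR partner list has a median of 0.27, whereas those of lipolysis (-0.26), mitochondrial oxidation (-0.17) and peroxisomal oxidation (-0.23) are under 0.

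The genes with the profile over the 9 samples most like that of *Lpl* were *Plxnb3*, *Fnip2* and *Sntb2*, at distances of 0.166, 0.213 and 0.224 between log2 values centred on each gene, where the median gene was at 1.14. Their log2 fold changes were 0.61, 0.53 and 0.61. Those most like *Fabp4* were *Yes1*, *Baiap2* and *Rab11fip5*, at 0.296, 0.297 and 0.352 against a median of 1.78, with log2 fold changes of -0.88, -1.07 and -0.98. The genotype difference is part of this distance, so fold changes near those of *Lpl* and *Fabp4* follow from the choice.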

How the data were processed

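Macrophages of 5 *Mrc1Cre Xpr1fl/fl* and 4 *Xpr1fl/fl* samples were profiled from 45 ng of total RNA. The authors prepared stranded mRNA libraries, sequenced them paired-end, ran FastQC, quantified transcripts with salmon on GRCm39, imported them with tximport and ran DESeq2, whose versions are not given in the sources used here. Deposited by the authors was a gene-level signal with no value below 0, the counts after their normalization in DESeq2. Their totals (26942921 to 28309443 per sample) are set by that normalization. Whole reads could not be recovered, since only 26.5% to 49.7% of values under 10 lay within 0.05 steps of a multiple of the best single step. Depth is therefore unknown, no count test was run and no counting intervals are given. The columns with no mapped sample numbered 0.

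Genes were named and placed with GENCODE release 39 (13698 of 13708 matched), and lengths are those of canonical transcripts. After addition of a pseudocount of 1 and log2 transformation, genotypes were compared by limma 3.58.1 (lmFit, then eBayes with a trend; R 4.3.3). A gene was tested where 4 or more samples reached 10 normalized counts. Tests were two-sided, the Benjamini-Hochberg adjustment was over all genes tested, the threshold was 0.05, and fold changes are on that log2 scale, which understates the change of low genes. The value within the date came from adding the date to this model. The code was tested on simulated data. Sharing of 31-base words was counted over all annotated transcripts. The 10 genes and the lists were chosen with earlier results of these data known. Genes of the 6 pathway lists were named if among the 3 highest or 3 lowest log2 fold changes past the threshold, provided that their mean reached 50 normalized counts and the genotypes did not overlap, beside *Xpr1*, *Mrc1*, the most abundant gene of each marker list and the 3 nearest profiles of *Lpl* and *Fabp4* by Euclidean distance. Some of the genes so named are not reported here. Alternatives were other pseudocounts (0.5, 10), no filter or a minimum of 50, scaling to the 75th percentile, quantile normalization, eBayes without trend, a replicate block, the date as a term, and leaving out each sample. Promoter windows were read from RefSeq, and figures drawn with matplotlib 3.10.9.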

Additional observations from a re-analysis of the deposited data

Results flagged for a closer look

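Among the named genes, 86 sets of samples of the same gene and genotype were examined for a sample far from the others, and 6 had one, where chance alone gives about 1 in 20 (4.3 here). *Dgat1* was 582.7 normalized counts in control sample 3, against 436.9 to 450.0 in the other controls. *Lpin1* was also highest in that sample, at 761.5 against 543.4 to 568.1. *Dagla* was 349.9 in control sample 4 against 264.1 to 277.3, and *Acadvl* 1324.4 in control sample 1 against 1200.3 to 1213.6. *Ep300* was lowest in control sample 1, at 3300.3 against 4193.4 to 4287.4. *Slc27a1* was 586.0 in *Mrc1Cre Xpr1fl/fl* sample 4 against 454.8 to 487.2.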

How the results depend on the processing

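The calls of *Lpl*, *Fabp4*, *Fabp5*, *Ppard* and *Pnpla2* stayed on their side of the threshold under all 18 alternatives, with log2 fold changes of 0.45 to 0.68, -1.21 to -0.71, -0.59 to -0.48, -0.08 to 0.035 and -0.14 to -0.013. With the date as a term, 1194 genes passed in place of 5865, 1 of the 10 genes was higher in place of 3 (*Cd36* and *Pparg* no longer passed), and 8 pathway genes passed in place of 66 (3 of uptake, 1 of triglyceride synthesis, 2 of lipolysis, 1 of mitochondrial oxidation, 0 of peroxisomal oxidation, with 4 at an unadjusted p under 0.05, and 1 of the PPAR partners). The estimate then rests on fewer samples. The sign turned with the date for *Ppard* (0.035), *Plin2* (-0.027), *Cpt1a* (-0.055), *Dgat1* (0.085) and *Acsl4* (-0.044). *Rxra* turned with scaling to the 75th percentile (-0.0085), under which *Dgat1* passed (-0.38, adjusted p = 0.0485, limma). *Ppard* turned with *Mrc1Cre Xpr1fl/fl* sample 1, 2 or 3 or control sample 3 left out, and ranged from -0.042 to 0.032 over the samples left out. With one sample left out at a time, 4815 to 6081 genes passed over the table, 3 to 4 of the 10 genes were higher, 2 to 3 lower, and 51 to 61 pathway genes passed, 6 to 10 of them peroxisomal and 7 to 12 PPAR partners. The causes were not tested.

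Replicate numbers did not pair the samples, since same-numbered samples correlated by -0.03, 0.15, -0.01 and -0.03 in their deviations from the genotype means. With the replicate block 6226 genes passed and 5 of the 10 genes were higher, *Plin2* (0.22) and *Cpt1a* (0.21) included, and *Dgat1* was lower (-0.41). *Mrc1Cre Xpr1fl/fl* sample 5, which has no numbered partner, does not enter that estimate. The estimate therefore compares only samples whose dates differ between the genotypes. Depth is unknown, so low genes such as *Fabp4* cannot be given a counting error.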
